A study of Homo sapiens with 4 samples.

Results

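Cytosolic ribosomal protein genes encode the protein part of the ribosome that translates nuclear-encoded mRNAs. They were taken as every row of the deposited count table whose symbol is RPL or RPS with a number, optionally ending in A, AL, X, L or L1, or is RPLP0, RPLP1, RPLP2 or RPSA. This found 87 of 55765 rows, 53 of the large subunit (RPL) and 34 of the small subunit (RPS and RPSA). By gene type, 86 rows are protein-coding in the gene tables and RPS10L is listed as a pseudogene. The rule goes by symbol, and whether each product is part of the cytosolic ribosome was not tested. FAU, which encodes a ribosomal protein fused to a ubiquitin-like protein, falls outside the symbol rule and is given beside the members.

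The cells were SK-N-BE(2)C, a long-established human neuroblastoma line in which the oncogene MYCN is amplified. Treated cultures received 10 µM ATRA (all-trans retinoic acid), a form of vitamin A under which such cells differentiate, and control cultures received ethanol, the solvent. Both lasted 144 h. No other genotype or agent separates the groups, and all libraries come from the same line, which grew in RPMI1640 medium with serum. Each group had 2 libraries of rRNA-depleted total RNA, 1 whose title carries no number (called 1 here) and 1 whose title ends in 2. Nothing in the labels tells whether libraries of the same group were grown as separate cultures. The p-values therefore reflect only how far these particular samples spread, and that spread may be technical.

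Library totals were 12850462 to 19883465 counts. The libraries also part by title number: mitochondrial rRNA took 2.49% and 5.96% of counts in ATRA 1 and ethanol 1, and 0.130% and 0.0291% in ATRA 2 and ethanol 2. Protein-coding genes took 75.8% in both libraries without a number and 86.9% in both numbered 2. For the main results the difference ATRA 1 minus ethanol 1 and the difference ATRA 2 minus ethanol 2 are therefore also given (differences within numbers). The 9 neuroblastoma markers checked were all present, with MYCN between 1778 and 3739 CPM (read counts scaled to library size). Of 12 markers of blood, endothelial, epithelial, liver, muscle and fibroblast cells, 11 have a row and 5 had enough reads to be tested. Their summed level was 76.9 and 277 CPM with ATRA and 184 and 439 CPM with ethanol. The fibroblast matrix genes DCN (40.9 to 310 CPM) and LUM (13.7 to 126 CPM) made up most of it. The monocyte marker CD14 ran the other way, at 19.0 and 6.76 CPM with ATRA and 2.69 and 1.64 CPM with ethanol, and in ATRA 1 it was above LUM. CD3E had 0 reads in 3 libraries and 1 in the other, and CDH5 was at or below 0.231 CPM in every library. Like many ribosomal protein genes, both DCN and LUM were highest in ethanol 2. The part of these markers in the results was not tested.

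Each ribosome carries 1 copy of most ribosomal proteins, so cells keep the output of these genes roughly balanced, and proliferating cells spend a large share of their mRNA on them. MYC family factors, of which MYCN is the amplified one here, are known to raise transcription of ribosomal protein genes. Their mRNAs begin with a cytosine followed by a run of pyrimidines, the terminal oligopyrimidine (TOP) tract, through which the mTORC1 kinase and the RNA-binding protein LARP1 control their translation and stability.

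The start sites show this shared feature. RefSeq windows (build GRCh38.p14) reaching from 250 bases before to 50 after a start were matched for 68 of the 87 members, with 84 starts in all. A C at the first transcribed base followed by at least 4 bases that are each C or T stood at a start of 47 of the 68 members (69.1%), against 1404 of 27305 genes in the table (5.14%; 4.07% of all 35116 windows). The tract was 5 to 19 bases long, with a median of 8. The following stretches hold 25 bases before the start and the first 20 transcribed bases, with the tract in capitals. RPS3, RPSA, RPS6 and RPL14 are shown because their fold changes are among the lowest of the members, RPL10 and RPL34 because theirs are among the highest, RPLP0 because it has the most counts, and RPL22, RPL22L1, RPS27 and RPS27L because they form paralogue pairs.
RPS3 (chr11:75399493-75399537, plus strand): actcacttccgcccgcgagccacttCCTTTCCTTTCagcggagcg
RPSA (chr3:39406695-39406739, plus strand): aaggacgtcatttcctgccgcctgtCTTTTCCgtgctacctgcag
RPS6 (chr9:19380217-19380261, minus strand): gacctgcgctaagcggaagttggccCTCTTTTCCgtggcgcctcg
RPL14 (chr3:40457314-40457358, plus strand): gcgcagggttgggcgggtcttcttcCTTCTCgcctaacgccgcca
RPLP0 (chr12:120201092-120201136, minus strand): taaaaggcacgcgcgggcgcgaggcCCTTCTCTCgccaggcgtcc
RPL10 (chrX:154398352-154398396, plus strand): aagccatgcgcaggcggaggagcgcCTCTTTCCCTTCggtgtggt
RPL34 (chr4:108620551-108620595, plus strand): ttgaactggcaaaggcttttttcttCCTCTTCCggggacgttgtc
RPL22 (chr1:6199576-6199620, minus strand): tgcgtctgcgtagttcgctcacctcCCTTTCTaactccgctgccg
RPL22L1 (chr3:170870176-170870220, minus strand): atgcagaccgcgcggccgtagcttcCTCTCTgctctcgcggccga
RPS27 (chr1:153990737-153990781, plus strand): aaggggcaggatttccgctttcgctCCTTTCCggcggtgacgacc
RPS27L (chr15:63157458-63157502, minus strand): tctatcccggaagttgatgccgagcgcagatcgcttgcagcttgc
RPS27L has no tract at its annotated start, while its main copy RPS27 has one. For RPL10 and RPL34, which have 3 and 2 starts in the table, the start with the longest tract is shown. A start annotated a base or more away from the one in use hides a tract, so an absent match says only that these letters are not at this position.

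Did the share of counts from ribosomal protein genes differ with ATRA? Ribosomal protein genes took a smaller share of the counts in both ATRA libraries than in either ethanol library. Together the 87 members held 3.19% of counts in ATRA 1, 3.40% in ATRA 2, 3.89% in ethanol 1 and 5.20% in ethanol 2. The groups do not overlap, but ethanol 2 stands well above ethanol 1, while the ATRA libraries lie close together. The means were 3.30% ± 0.148 with ATRA and 4.54% ± 0.925 with ethanol (SD, n = 2), a ratio of 0.725 (exact permutation test, two-sided, p = 0.33, the smallest p that 2 against 2 allows). Within title numbers the ratio of ATRA to ethanol was 0.820 for libraries 1 and 0.654 for libraries 2. Counted against protein-coding counts alone the shares were 4.21% and 3.91% with ATRA and 5.13% and 5.98% with ethanol. Shares and CPM are relative to the other RNA in a library and do not give the amount per cell. In bulk RNA, a smaller share of cells with high expression, less of this RNA in every cell and more of other RNA cannot be told apart.

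**Figure D1:**
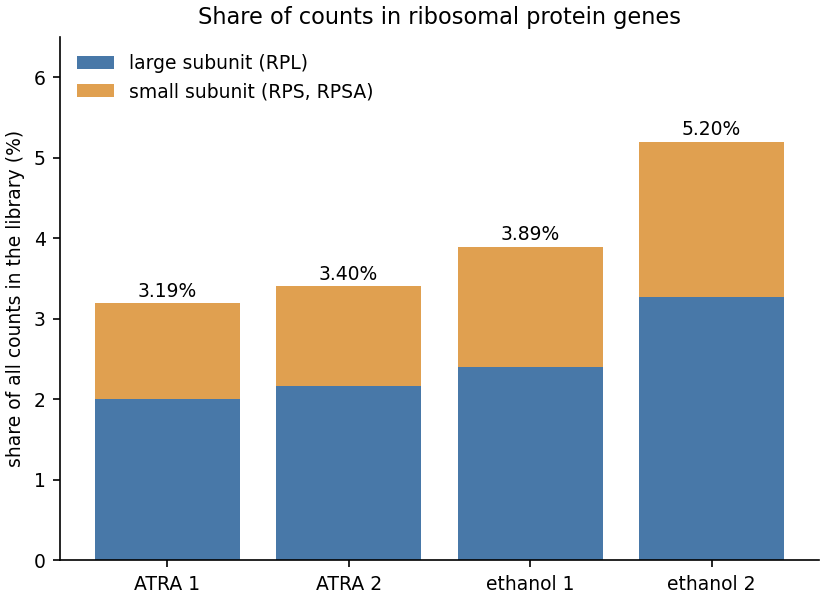
Share of all counts in each of the 4 libraries (percent, y axis) that fell in large subunit genes (blue) and small subunit genes (orange), with the sum printed above each bar. Both ATRA libraries (3.19% and 3.40%) lie below both ethanol libraries (3.89% and 5.20%).

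Both subunits show the same order of libraries. Large subunit genes took 2.00% and 2.17% of counts with ATRA and 2.40% and 3.27% with ethanol. Small subunit genes took 1.19% and 1.23% against 1.49% and 1.93%. The ratio of large to small subunit counts was 1.68 and 1.76 with ATRA and 1.61 and 1.69 with ethanol, so the groups overlap (exact permutation p = 0.667, two-sided).

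Gene by gene, no member passed the test with treatment as its sole term, and nearly all lay slightly below ethanol. Of the 87 members, 83 had enough reads to be tested; the others, among them RPL3L, RPL10L and RPS10L, had at most 11 reads in any library. Of the 83, 0 were called higher and 0 lower by edgeR's quasi-likelihood test with Benjamini-Hochberg adjustment over all 18900 genes tested (threshold 0.05), where 0.545% of genes were called higher and 0.153% lower, 0.698% in all. The smallest adjusted p among them was 0.250 (edgeR quasi-likelihood). DESeq2 also called 0 members, where it called 2.62% of genes lower and 4.62% higher, and limma-voom called 0, where it called 0.037% lower and 0.228% higher. An unadjusted p under 0.05 was reached by 6 members (7.23%) in edgeR, all lower, where 15.9% of all genes reached it in either direction and 6.49% as lower. DESeq2 gave 5 such members (15.8% of all genes) and limma-voom 7 (15.9%). None of these fits includes the title number. The calls depend on that choice, as given at the end under how the results depend on the processing.

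The fold changes were small and nearly all of the same sign. Of the 83 members, 82 had a log2 fold change of ATRA over ethanol below 0, where 49.2% of all genes tested did. Their median was -0.40, with quartiles of -0.51 and -0.30, against a median of 0.01 over all genes. None exceeded 1 in size. The standard deviation over members was 0.17, where over all genes it was 1.11. These spreads differ in precision, as the median standard error was 0.43 over all genes and 0.27 over members. All genes also span -7.31 to 14.7. Whether members spread less than genes of like depth was not tested. The standard error of a single member's fold change had a median of 0.27 and ran from 0.23 to 0.94, so most members lay within 2 standard errors of 0; 16 did not. A non-call at this precision does not show that a gene stayed the same.

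**Figure D2:**
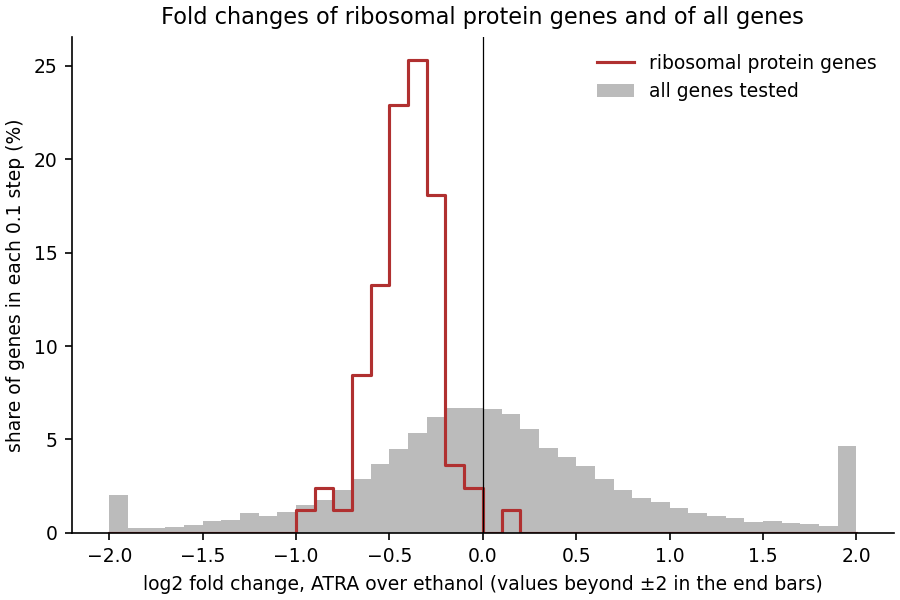
Share of genes (percent, y axis) in each 0.1 step of the log2 fold change of ATRA over ethanol (x axis), for the 83 ribosomal protein genes tested (red line) and all 18900 genes tested (grey bars). The red line is narrow and sits left of 0, with a median of -0.40 against 0.01 for all genes. The sets differ in precision, with median standard errors of 0.27 and 0.43.

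The size of the shift rests on which ethanol library is used. Without ethanol 2 the median was -0.21 and 69 of 83 members were below 0; without ethanol 1 it was -0.62 with 81 of 83 below 0. Without ATRA 1 or ATRA 2 it was -0.46 or -0.45. For libraries 1 the median log2 difference was -0.21, with 71 of 83 members below 0 (50.1% of all genes). For libraries 2 it was -0.59 and all 83 members were below 0 (46.9% of all genes). Below 0 within both numbers were 71 members (85.5%), against 35.3% of all genes. Both ATRA libraries lay below both ethanol libraries in CPM for 54 members (65.1%), where 21.7% of all genes did so, and above them for 0 members, where 23.8% did.

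Ethanol 2 was the highest of the 4 libraries for 70 of the 83 members, ethanol 1 for 11, ATRA 1 for 2 and ATRA 2 for 0. The lowest library was ATRA 2 for 40 members, ATRA 1 for 37 and ethanol 1 for 6. The median log2 difference between the libraries of a group, 2 minus 1, was 0.38 within ethanol and -0.01 within ATRA. For 37 members the gap between the ethanol libraries was larger than the fold change between treatments, and for 22 the gap between the ATRA libraries was.

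**Figure D3:**
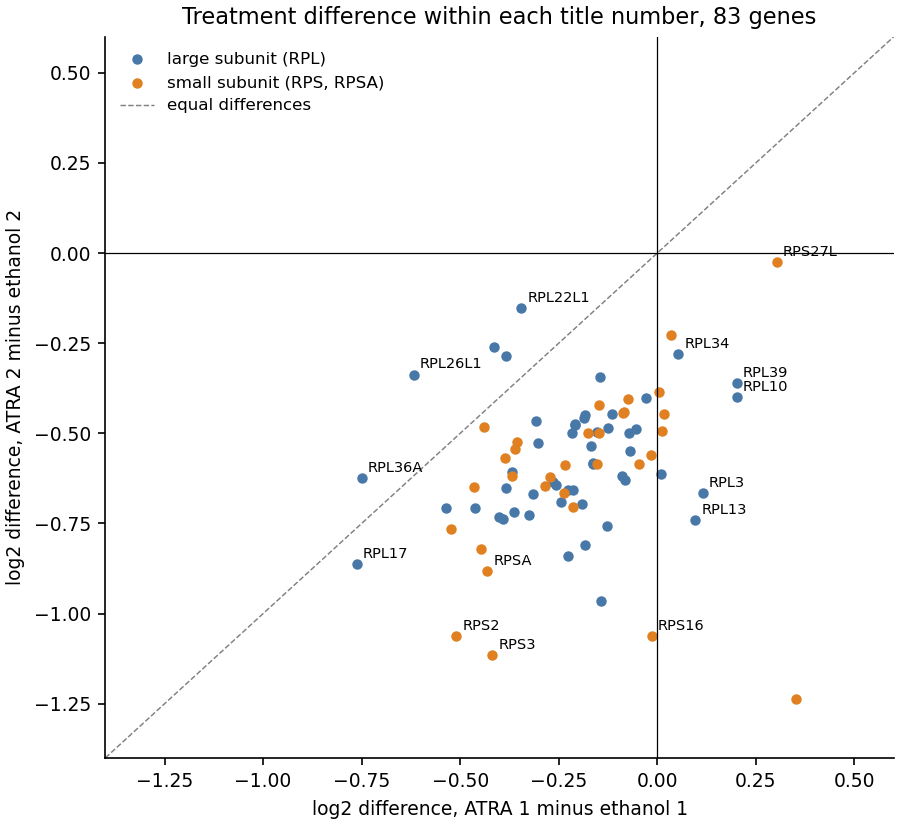
Log2 difference of ATRA minus ethanol for libraries 1 (x axis) and for libraries 2 (y axis), 1 point per gene for the 83 genes tested, large subunit in blue and small subunit in orange; the dashed line marks equal differences. All points lie below 0 on the y axis and 71 of them also lie left of 0 on the x axis, and most sit under the dashed line.

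Several small subunit genes were among the lowest fold changes. RPS2, whose product sits at the mRNA entry side of the small subunit, had 785 and 764 CPM with ATRA and 1118 and 1594 CPM with ethanol. The groups do not overlap, and the fold change was -0.81 ± 0.29 (SE; adjusted p = 0.250, edgeR quasi-likelihood; -0.51 and -1.06 within numbers). Rows named as pseudogenes of RPS2 held 9.19% of the joint reads, and with these added its fold change was -0.79. RPS3, which also has DNA repair activity, had 714 and 522 CPM with ATRA and 955 and 1131 CPM with ethanol. Its fold change was -0.76 ± 0.28 (adjusted p = 0.274, edgeR quasi-likelihood; -0.42 and -1.12 within numbers). RPSA, also known as the laminin receptor precursor, had 516 and 493 CPM with ATRA and 696 and 910 CPM with ethanol, at -0.67 ± 0.26 (adjusted p = 0.293, edgeR quasi-likelihood; -0.43 and -0.88 within numbers). In all 3 genes the difference within libraries 2 was larger than that within libraries 1.

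RPS6, the ribosomal protein phosphorylated by S6 kinase downstream of mTORC1, had 474 and 531 CPM with ATRA and 681 and 902 CPM with ethanol. Both ATRA libraries were lower, and its fold change was -0.66 ± 0.27 (adjusted p = 0.314, edgeR quasi-likelihood; -0.52 and -0.76 within numbers). RPS16 shows how far ethanol 2 can set a value: it was level in ATRA 1, ATRA 2 and ethanol 1 (266, 262 and 268 CPM) and had 548 CPM in ethanol 2. It was singled out after its values were seen.

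RPL17 and RPL36A were also among the 6 lowest fold changes, and their counts are less certain. Rows of their processed pseudogenes held 14.9% of the joint reads for RPL17 and 16.3% for RPL36A. Those shares stand beside few reads of the parent gene, 185 to 408 per library for RPL17 and 221 to 450 for RPL36A. The median over the members tested was 5403 reads. Why these genes had so few was not tested. RPL17 had 15.4 and 11.1 CPM with ATRA and 26.2 and 20.2 CPM with ethanol (-0.81 ± 0.33). RPL36A had 15.0 and 14.4 CPM against 25.3 and 22.3 CPM (-0.69 ± 0.28). Adjusted p was 0.309 and 0.306 (edgeR quasi-likelihood), and in both genes the differences within numbers lay close together (-0.76 and -0.86 for RPL17, -0.75 and -0.62 for RPL36A). Rows for joint transcripts with a neighbouring gene exist for RPL17, RPL36A and RPS10 and held at most 2 reads per library. How the counting treated reads shared by such genes is not given in the sources used here.

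At the other end, RPS27L was the single member above 0, at 0.12 ± 0.29 (25.7 and 28.8 CPM with ATRA, 20.8 and 29.3 CPM with ethanol), and it turned to -0.15 without ethanol 1. RPS27L is a known p53 target gene. RPL10, a late-joining large subunit protein, was at -0.08 ± 0.28, with 1004 and 704 CPM against 873 and 929 CPM. RPL34 was at -0.12 ± 0.25, RPL39 at -0.17 ± 0.48 and RPS12 at -0.18 ± 0.25. These 4 genes were above 0 within libraries 1 (0.0047 to 0.20) and below 0 within libraries 2 (-0.40 to -0.28). Leaving out 1 library turned the sign for 3 of them: RPL10 was at 0.15 without ATRA 2, and RPL34 and RPL39 were at 0.065 and 0.63 without ethanol 2. Adjusted p for these 4 and RPS27L lay between 0.824 and 0.949 (edgeR quasi-likelihood).

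**Figure D4:**
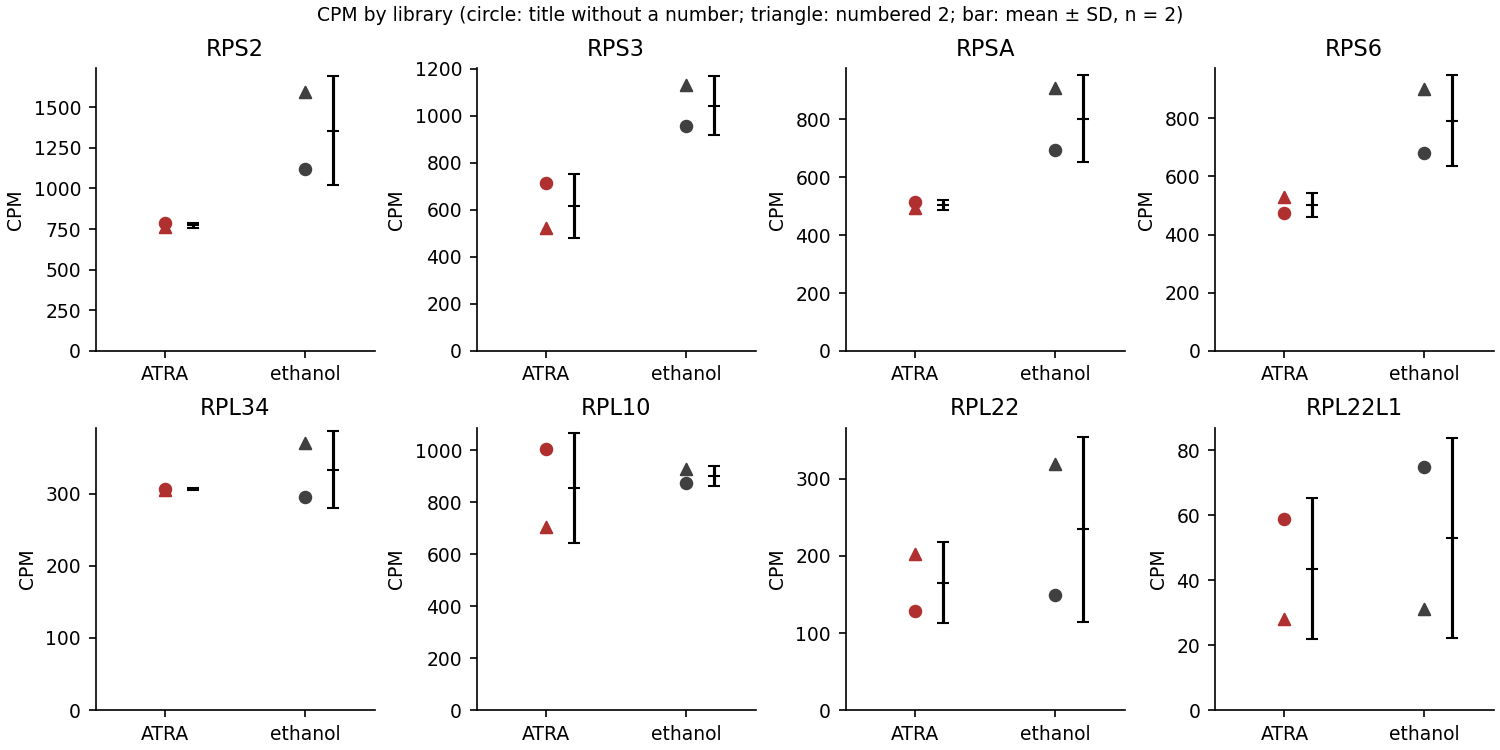
CPM (y axis, from 0) of 8 ribosomal protein genes in the ATRA libraries (red) and ethanol libraries (grey); circles are libraries without a title number, triangles libraries numbered 2, and the bars mean ± SD (n = 2). RPS2, RPS3, RPSA and RPS6 are lower in both ATRA libraries, whereas RPL34, RPL10 and RPL22 overlap between treatments and RPL22L1 parts by title number.

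The members with the most counts (not set per length) were RPLP0, RPL4, RPL13A, RPL7A and RPS2. RPLP0, the core of the acidic stalk that recruits elongation factors, had 1394 and 1959 CPM with ATRA and 1733 and 3116 CPM with ethanol. The groups overlap, and RPLP0 stood at -0.53 ± 0.38 (adjusted p = 0.601, edgeR quasi-likelihood; -0.31 and -0.67 within numbers). Its share of all ribosomal protein counts was higher in libraries 2 (5.84% and 6.08%) than in libraries 1 (4.16% and 4.50%). The other stalk genes ran the opposite way: RPLP1 had 0.930% and 0.931% in libraries 2 and 1.12% and 0.973% in libraries 1, and RPLP2 0.442% and 0.489% against 0.542% and 0.516% (ATRA first). In CPM, RPLP1 was at 377 and 312 CPM against 374 and 477 CPM, and RPLP2 at 182 and 148 CPM against 199 and 251 CPM. RPL4 was at -0.39 ± 0.29, RPL13A at -0.49 ± 0.28 and RPL7A at -0.57 ± 0.26. In each of these 3 large subunit genes both ATRA libraries were below both ethanol libraries. Within numbers the differences were -0.16 and -0.58 for RPL4, -0.18 and -0.81 for RPL13A, and -0.39 and -0.74 for RPL7A.

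RPL5 and RPL11 form a particle with the 5S rRNA that can bind MDM2 and stabilise p53 when ribosome assembly fails. RPL5 had 346 and 521 CPM with ATRA and 447 and 792 CPM with ethanol (-0.52 ± 0.37; -0.37 and -0.61 within numbers). RPL11 had 302 and 380 CPM against 350 and 599.7 CPM (-0.48 ± 0.34; -0.21 and -0.66 within numbers). In both genes ATRA 2 was higher than ethanol 1, so the groups overlap. RPS27A, which encodes ubiquitin fused to a small subunit protein, had 271 and 194 CPM against 330 and 304 CPM (-0.45 ± 0.27; -0.28 and -0.65 within numbers), with no overlap. Adjusted p for these 3 was 0.511 to 0.603 (edgeR quasi-likelihood).

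Among the 20 ribosomal protein genes mutated in Diamond-Blackfan anaemia, an inherited red cell aplasia, 19 were tested. Of these, 0 were called (edgeR quasi-likelihood), where 0.698% of all genes were. All 19 were below 0 within both title numbers, where 85.5% of all members tested and 35.3% of all genes were. Their median was -0.42, near that of all members (-0.40), and their range ran from -0.56 (RPS7) to -0.25 (RPS29). Large subunit genes had a median of -0.39 (51 tested) and small subunit genes of -0.45 (32 tested).

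Several ribosomal proteins have a second gene copy, often with restricted expression. The muscle form RPL3L (1 to 9 reads) and the testis form RPL10L (0 or 1 read) were near absent. For the other 6 pairs the counts of the copy were set against 100 counts of the main gene in the same library. RPL22L1, a copy of RPL22 that RPL22 protein is known to repress, had 46.0 and 13.9 per 100 with ATRA and 49.9 and 9.79 per 100 with ethanol. This ratio parted by title number in both treatments. RPL22L1 itself was at 58.9 and 28.1 CPM with ATRA and 74.8 and 31.3 CPM with ethanol, while RPL22 ran the other way, at 128 and 203 CPM against 150 and 319 CPM.

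RPS27L was the copy whose ratio parted by treatment: 9.31 and 7.74 per 100 counts of RPS27 with ATRA, and 7.16 and 5.95 with ethanol. The log2 ratio differed by 0.38 on average and by 0.38 within both numbers (exact permutation p = 0.33, two-sided, the smallest that 2 against 2 allows; Benjamini-Hochberg adjusted p = 1 over 6 ratios). In the other 5 pairs the groups overlapped (exact permutation p of 0.667 or 1). RPL7L1, RPL26L1 and RPL36AL had mean log2 differences of 0.02, 0.06 and 0.48, RPL22L1 of 0.19 and RPL39L of -0.26. Only RPS27L and RPL36AL had differences of the same sign within both numbers among these 6. RPL36AL had 434 and 558 per 100 counts of RPL36A with ATRA and 262.5 and 477 with ethanol. RPL36A is thus the lower of this pair, at 14.4 to 25.3 CPM, and its counts are less certain, as said above. With pseudogene counts added, the mean log2 difference of RPL36AL was 0.40. RPL39L, a copy of RPL39, had 9.44 and 7.08 per 100 with ATRA and 14.2 and 6.73 per 100 with ethanol. RPL26L1 had 17.1 and 17.5 CPM against 26.3 and 22.1 CPM, and RPL7L1 232 and 305 CPM against 309 and 365 CPM.

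Ribosomal protein genes have many processed pseudogenes, which can take up reads of the parent gene. The table has 812 rows named as a pseudogene of a member, of which 479 had at least 1 read. Per 100 reads of members they held 1.51 and 1.75 with ATRA and 1.46 and 1.60 with ethanol. Of the tested members, 9 had over 5% of their joint reads in such rows, among them RPL23A (25.9%), RPS10 (22.1%) and RPL36A (16.3%), which were chosen after their values were seen. Adding these reads to the parent left the median at -0.40 and 0 members called.

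The wider set of TOP mRNAs lay in the same range. Of 21 genes with a row, encoding mostly translation factors, 20 were tested. Of these, 0 were called (edgeR quasi-likelihood), where 0.698% of all genes were. An unadjusted edgeR p under 0.05 was reached by 1 of the 20 (5%), where 15.9% of all genes reached it. All 20 were below 0, against 49.2% of all genes, with a median of -0.31. As with the ribosomal proteins, the median was larger within libraries 2 (-0.52) than within libraries 1 (-0.07). The lowest was NPM1, a nucleolar chaperone, with 1105 and 1213 CPM against 2007 and 1907 CPM (-0.76 ± 0.26; adjusted p = 0.233, edgeR quasi-likelihood). The highest was TPT1 at -0.03 ± 0.28. FAU was at -0.13 ± 0.29, and within libraries 1 it was slightly above 0 (0.11).

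Members with a TOP tract at a RefSeq start had a median of -0.44 (47 genes) and those without of -0.35 (20 genes, including RPL4, RPL6 and RPS27L). Within libraries 1 these medians were -0.21 and -0.14, and within libraries 2 they were -0.62 and -0.52. Among all other genes tested, 712 with such a tract had a median of -0.02 and 9638 without of 0.04. The E-box CACGTG, a letter string that MYC and MYCN can bind, stood in the 300-base window of 5 of 68 members (7.35%) on either strand, against 8.77% of all genes. The ETS-type string CCGGAAG stood in 24 of 68 (35.3%) against 12.2% of all genes, and TATAAA in 7 of 68 (10.3%) against 14.0%. Members with CCGGAAG had a median fold change of -0.43 and those without of -0.39. Across 82 members the fold change and the GC content of the transcript had a Pearson's r of -0.07 and a Spearman's rho of -0.07 (across genes, which share the same libraries and are not independent replicates). The signs differed within numbers, with r of 0.12 and rho of 0.11 for the difference within libraries 1, and -0.29 for both within libraries 2.

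Mitochondrial ribosomal proteins, which build the separate ribosome of that organelle, are shown for comparison. Of 74 tested, 0 were called (edgeR quasi-likelihood), where 0.698% of all genes were. An unadjusted edgeR p under 0.05 was reached by 8 (10.8%), all lower. Of all genes, 15.9% reached it in either direction and 6.49% as lower. Below 0 were 67 (90.5%), against 49.2% of all genes, and the median was -0.32. Their medians within numbers were near equal (-0.34 and -0.33), whereas those of the cytosolic genes were -0.21 and -0.59. Within ethanol, library 2 differed from library 1 by a median of -0.04 for mitochondrial and 0.38 for cytosolic ribosomal protein genes; this contrast between the lists was not tested. The lowest was MRPL11, with 24.6 and 28.8 CPM against 57.2 and 66.8 CPM (-1.21 ± 0.25; adjusted p = 0.0955, edgeR quasi-likelihood), and the highest MRPS18A at 0.17 ± 0.33.

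**Figure D5:**
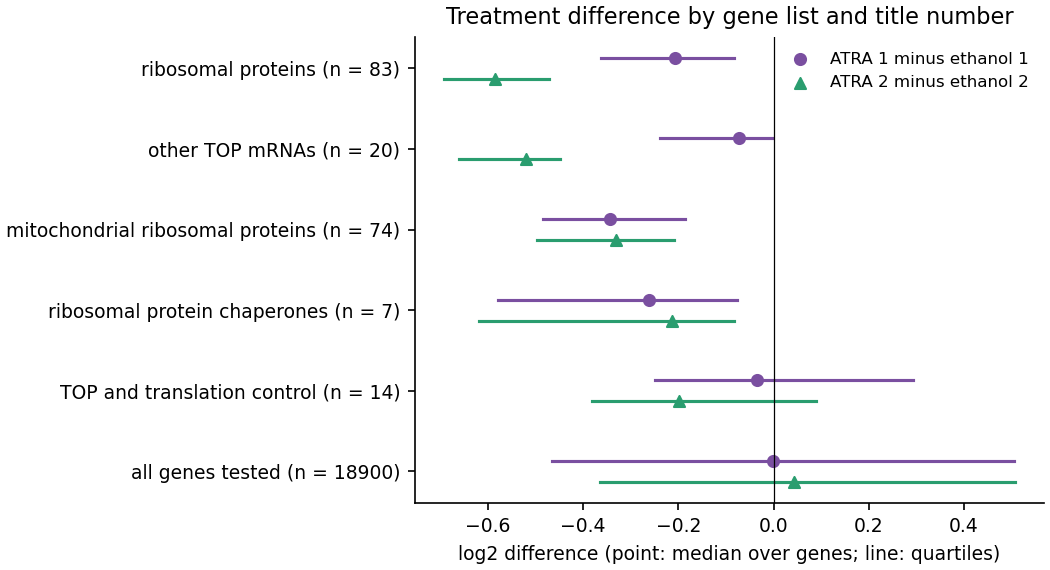
Median log2 difference of ATRA minus ethanol (points, with lines for the quartiles over genes) within libraries 1 (purple circles) and libraries 2 (green triangles) for 6 gene lists. Cytosolic ribosomal proteins (-0.21 and -0.59) and other TOP mRNAs (-0.07 and -0.52) sit lower for libraries 2, and mitochondrial ribosomal proteins (-0.34 and -0.33) lie at nearly the same place.

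Of 7 chaperones that escort single ribosomal proteins, 6 (85.7%) were below 0, against 49.2% of all genes, with a median of -0.18. None of the 7 was called (edgeR quasi-likelihood), where 0.698% of all genes were. An unadjusted edgeR p under 0.05 was reached by 2 (28.6%), against 15.9% of all genes. LTV1, an assembly factor of the small subunit, was lowest at -0.65 ± 0.24, with 28.2 and 26.7 CPM against 43.0 and 43.3 CPM. PDCD2L was highest at 0.22 ± 0.36. Of 14 genes that control TOP mRNAs and translation, 0 were called (0.698% of all genes). An unadjusted edgeR p under 0.05 was reached by 1 (7.14%), against 15.9% of all genes. Below 0 were 8 (57.1%), against 49.2% of all genes, with a median of -0.14. MYCN was the lowest, with 2319 and 1778 CPM against 3739 and 2910 CPM (-0.70 ± 0.31; adjusted p = 0.345, edgeR quasi-likelihood), and the differences within numbers lay close together (-0.69 and -0.71). MYC was the highest at 3.33 ± 1.05, from 0.924 and 0.149 CPM with ethanol to 8.13 and 2.27 CPM with ATRA, with an adjusted p of 0.203 by edgeR's quasi-likelihood test. LARP1, which binds TOP mRNAs, was at -0.11 ± 0.23.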

How the data were processed

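Per the submitters' processing notes, STAR 2.5.2b, featureCounts 1.5.1 and the human build hg19 were used. The authors deposited raw read counts per gene symbol, 1 column per library. No source used here states the annotation, the strand setting or the treatment of shared reads, so counts of near-identical or overlapping genes are uncertain. Genes passed filterByExpr (minimum count 10), were scaled by TMM and tested with edgeR 4.0.16 in R 4.3.3 (quasi-likelihood F test, robust, group as sole term, 2 residual degrees of freedom, two-sided, Benjamini-Hochberg over 18900 genes, threshold 0.05). Standard errors are the log2 fold change over the root of F. Within-number differences use log2 CPM with a prior count of 2. Single values per library were compared by exact permutation. The procedure was also run on simulated counts with the same dispersion for every gene and no effect of title number. The real libraries part by that number, so the run does not show how the test performs on them. DESeq2 1.42.0 and limma 3.58.1 were alternatives. Named genes are the 6 highest and lowest fold changes, the 5 members with most counts, 8 paralogue pairs, stalk genes, RPL5, RPL11, RPS6, RPS27A and RPSA, and the extremes of the other lists. Some genes it picks are not reported here. Members and lists were chosen with earlier results of these data known. Start site windows and gene types came from RefSeq and GENCODE tables of a later build.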

Additional observations from a re-analysis of the deposited data

How the results depend on the processing

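The numbers in the titles do not say what pairs the libraries. With 2 pairs they were not used as a pairing, although deviations of the libraries from their group means correlated at 0.632 between libraries of the same number across 18900 genes. Across the members tested this correlation was higher, at 0.813. With the replicate block (title number beside treatment), edgeR called 15 members lower and 0 higher, where 9.38% of all genes were called lower, and DESeq2 with that block called 6 lower (6.27% of all genes). The 6 were RPL14, RPS2, RPS3, RPS6, RPS13 and RPSA, all among the 15. Without the block, 0 members were called in either direction under each other alternative run: DESeq2, limma-voom, 5 other scalings or gene sets, every gene with at least 1 count, added pseudogene reads, and each library left out in turn. The median fold change ran from -0.47 to -0.38 over the scalings and filters and from -0.62 to -0.21 over fits without 1 library.

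Of 450 values for 30 named members under alternatives, 429 kept their direction and non-call, 11 were called under a block, and 10 changed sign, all of these without 1 library. Without 1 library at a time, these fold changes ran from -0.36 to 0.15 for RPL10, -0.998 to 0.16 for RPL22, -0.91 to 0.43 for RPL22L1, -0.32 to 0.065 for RPL34, -0.60 to 0.15 for RPL36AL, -0.73 to 0.63 for RPL39, -0.65 to 0.18 for RPS27 and -0.15 to 0.41 for RPS27L. With fewer samples, a lone library is assumed to vary like the other group; beyond that the cause was not tested. Members had a median of 5403 reads per library (10 to 62882 among those tested), and 2 libraries per group limit the precision.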
